A study of Saccharomyces cerevisiae with 4 samples.

Results

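The 60S subunit assembly factor genes encode proteins that build the large subunit of the ribosome without being part of the finished particle. The members were taken from a list of 40 open reading frames (NOP7, ERB1, YTM1, the Noc proteins, DEAD-box helicases, GTPases and other 60S assembly factors), and 37 of them are rows of the count table of 4970 transcripts analysed here. NOG2, LSG1 and MDN1 were not analysed here. All 37 passed the filter on low counts, with between 1082 and 39338 counts in each library, so that none owed its place to a high level in only 1 group. The list was drawn up by function and not by these measurements, although earlier results of the data were known when it was made.

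The assay was 4tU-seq, a measure of newly made RNA, in which cells take up 4-thiouracil and the RNA made during the pulse is purified through its thiol label and sequenced. The Saccharomyces cerevisiae cells were of strain BY4741, carried either a wild-type genome or a replacement of SYC1 by the kanMX drug resistance cassette (syc1::kanMX, the knockout), and all cultures grew in YPD at 30 °C until the OD600 reached 0.8, when 4-thiouracil was added at 5 mM for a pulse of 6 min. Syc1 is the subunit that defines the APT complex, whose other subunits also belong to CPF, the complex that cleaves and polyadenylates mRNA 3′ ends, and the question was how RNA synthesis differs when it is missing. There were 2 knockout and 2 wild-type libraries, described in the study's methods as biological replicates, and whether the knockout came from more than 1 clone is not given in the sources used here.

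The libraries held between 22880058 and 36175417 counts, and the 37 genes took between 1.02% and 1.31% of them. The deleted gene, SYC1, was read 1 and 2 times in the knockout against 743 and 794 times in wild-type, so the libraries matched their labels. Its fitted log2 difference, −8.22 ± 0.25 SE (adjusted p = 2.18e-07 by edgeR), depends on the prior count and is no bound. LEU2, MET17 and URA3, which are deleted in BY4741, had 0 counts in all 4 libraries. Every value is a share of its own library, and in a bulk culture a smaller share of cells that make an RNA cannot be told apart from less of it made per cell.

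The large subunit is assembled in the nucleolus, and most of its RNA comes from the same precursor RNA that yields the small subunit's RNA. Assembly factors bind this precursor as it is transcribed, helicases and methyltransferases act on its folds, GTPases and a large AAA ATPase remodel the particle, and export factors carry it to the cytoplasm, where the last factors leave. In budding yeast the genes for these proteins belong to the ribosome biogenesis regulon, whose promoters are known for the PAC element, bound by the repressors Dot6 and Tod6, and the RRPE element, bound by Stb3.

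These elements were looked for first, because they are a property of the genes that the choice of members did not use. In the 250 bases before the transcript start of the deposited annotation, PAC was searched as GATGAG and RRPE as AAAAATTTT, each on both strands. RRPE letters on opposite strands can overlap in a longer run of A and T, and such overlaps were counted as 1 site. PAC letters stood before 34 of the 37 genes (91.9%) and before 18.6% of all 4909 mRNA regions. RRPE letters stood before 30 of the 37 (81.1%) and before 8.47% of all mRNA regions. Both were present before 27 genes (73.0%, against 4.16% of all mRNA regions), and none of the 37 had neither, whereas 77.1% of all mRNA regions had neither. Other genes of ribosome assembly came closer. Of 38 other 60S assembly factors 84.2% had PAC, 50% RRPE, 39.5% both and 5.26% neither, and of 28 factors of the small subunit these shares were 92.9%, 57.1%, 53.6% and 3.57%. The PAC letters nearest to the start lay at a median of 68.5 bases before it (31 to 146), and the nearest RRPE letters at a median of 94 bases (47 to 135). Between the closest PAC and RRPE of a gene there were 3 to 51 bases (median 9), and RRPE was the one farther from the start in 23 of the 27 genes.

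**Figure D1:**
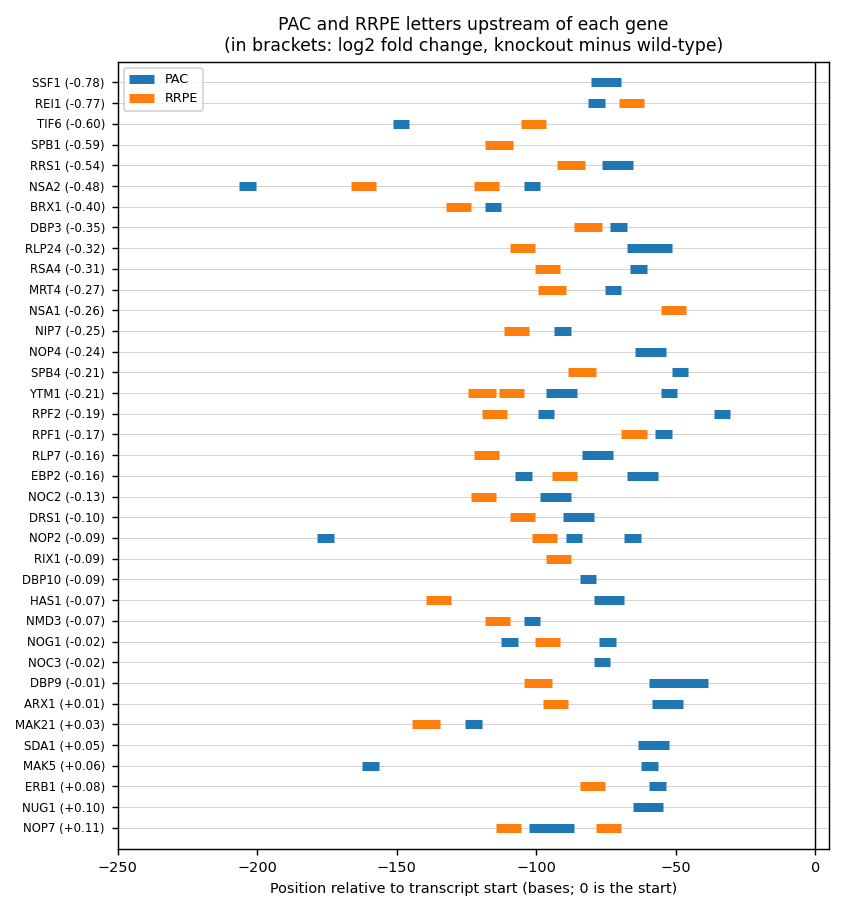
Positions of PAC (blue) and RRPE (orange) letters in the 250 bases before the transcript start of each of the 37 genes, with the start at 0 and the genes ordered by log2 fold change, the lowest at the top. Where present, most marks lie in a similar band before the start in genes at both ends of the order. Orange marks are missing in 7 genes, among them SSF1 at the top and SDA1, MAK5 and NUG1 near the bottom. SPB1, near the top, has no blue mark, and the blue mark of TIF6 lies farther out, at 151 to 146 bases.

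The stretches before the 4 genes whose RNA was lower in the knockout by more than 1.5-fold are shown, so that the shared letters can be compared. Also shown are those before 2 of the 17 genes whose RNA was not lower without a length correction. Both of these 2 carry PAC and RRPE, which not all of the 17 do. The sequences are from sacCer3, 5′ to 3′ on the strand of the gene. They end at the base before the transcript start, with PAC and RRPE letters in capitals. They were read from the RefSeq copy of assembly R64. The stretch before REI1 is shorter because another counted transcript reaches that far, and for TIF6 windows of 30 bases around each element are given.

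SSF1, chrVIII:229153-229312, plus strand: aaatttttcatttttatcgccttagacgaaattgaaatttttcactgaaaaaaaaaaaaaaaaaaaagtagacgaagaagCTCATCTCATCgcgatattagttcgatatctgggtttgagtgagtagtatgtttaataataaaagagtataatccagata

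REI1, chrII:739678-739824, plus strand: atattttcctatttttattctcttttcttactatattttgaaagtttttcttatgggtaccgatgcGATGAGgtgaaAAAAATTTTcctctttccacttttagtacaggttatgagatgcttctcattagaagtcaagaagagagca

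SPB1, chrIII:31273-31432, plus strand: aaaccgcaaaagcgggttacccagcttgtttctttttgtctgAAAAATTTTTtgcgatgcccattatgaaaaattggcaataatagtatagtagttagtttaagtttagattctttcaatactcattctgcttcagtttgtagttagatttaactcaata

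TIF6 PAC, chrXVI:593295-593324, minus strand: gaaatcctaatgGATGAGcattacccgttt

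TIF6 RRPE, chrXVI:593247-593276, minus strand: aaattttcggAAAATTTTTattaattaaag

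MAK21, chrIV:570459-570618, plus strand: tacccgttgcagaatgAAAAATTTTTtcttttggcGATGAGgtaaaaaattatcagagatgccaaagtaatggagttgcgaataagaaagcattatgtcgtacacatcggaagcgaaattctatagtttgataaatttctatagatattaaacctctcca

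NOP7, chrVII:695230-695389, plus strand: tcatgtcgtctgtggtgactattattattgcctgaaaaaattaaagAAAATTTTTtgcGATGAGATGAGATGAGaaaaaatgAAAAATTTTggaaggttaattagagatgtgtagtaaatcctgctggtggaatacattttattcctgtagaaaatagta

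SSF1 has PAC letters and no RRPE, and SPB1 has RRPE and no PAC. MAK21 and NOP7, whose levels were not lower without a length correction, carry both. So do REI1 and TIF6, the latter beyond the border of the neighbouring transcript. Of the 30 genes with RRPE 18 were lower in the knockout at an adjusted p under 0.1 (median log2 fold change −0.18). Of the 7 without it 2 were lower (median −0.02). NUG1, MAK5 and SDA1 among these 7 had positive values, as did 4 genes with RRPE. Of the 27 genes with both elements 16 were lower in the knockout at an adjusted p under 0.1 (median log2 fold change −0.17), as were 4 of the 10 genes with 1 of them (median −0.09). With a correction for transcript length, described further on, these counts were 21 and 8. Over all genes tested 35.5% were lower, and 38.5% with this correction. Without it the share of genes with 1 element that were lower, 40%, lay near that of all genes. Neither the difference between genes with both elements and with 1 nor that between genes with and without RRPE was tested. The letters of a motif do not show that a factor binds there.

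The comparison of knockout and wild-type asked next whether synthesis of the assembly factor RNAs differed without Syc1. Of the 37 genes, 20 were lower in the knockout and 0 were higher (edgeR quasi-likelihood test, Benjamini-Hochberg adjusted p under 0.1 over 4845 genes). Over all genes tested, 35.5% were lower and 33.5% were higher by the same rule. At an unadjusted p under 0.05 the count of higher members was also 0, in edgeR and in DESeq2, and DESeq2 likewise called 0 of them higher at its adjusted p. The changes were small. The median log2 fold change of the 37 genes was −0.16 (quartiles −0.31 and −0.02), a level 10.4% lower, and that of all genes tested was −0.02. The values ran from −0.78 for SSF1 to 0.11 for NOP7, and 30 of the 37 were negative (81.1%, against 51.6% of all genes tested).

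With the fold change minimum of 1.5 that the study used, 4 of the 37 were down (SSF1, REI1, TIF6 and SPB1) and 0 were up. In this edgeR fit 7.48% of all mRNAs were down and 9.12% up. Both shares are larger than those the study reported for mRNAs with DESeq2 at the same thresholds. Over all genes 8.15% were down and 9.08% up, so the share of members down, 10.8%, lay near that of all genes. In the DESeq2 test against a fold change of 1.5, 0 of the 37 were down, with 2 at an unadjusted p under 0.05, and 2.62% of all genes were.

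**Figure D2:**
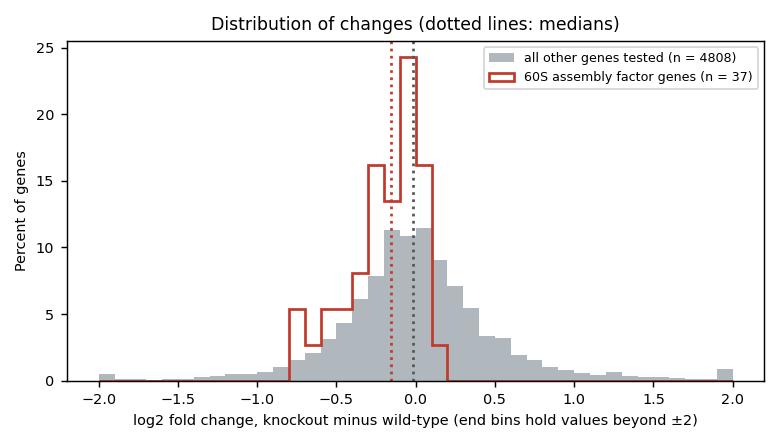
Percent of genes in each bin of log2 fold change (knockout minus wild-type, bins of 0.1) for the 37 assembly factor genes (red outline) and for the 4808 other genes tested (grey), with dotted lines at the medians. The red outline lies mostly to the left of 0 and ends at 0.11, while the grey distribution extends to both sides.

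The libraries themselves bear on this. As a share of all counts the 37 genes together took 1.11% and 1.02% of the counts in the knockout and 1.31% and 1.30% in the wild-type (mean 1.07% ± 0.0674 and 1.31% ± 0.00681, SD, n = 2 each). Every knockout library lay below every wild-type library (two-sided exact permutation p = 0.333, the smallest that 2 against 2 libraries can give). No normalization factors enter these shares. In the fit without factors the median log2 fold change was −0.31 for the members and −0.17 for all genes, so the median gene was lower too. Single genes are given in CPM, the usual unit of counts scaled to a common library size, here with the TMM factors of edgeR. Gene by gene, both knockout libraries were below both wild-type libraries in 26 of the 37 genes, against 43.2% of all genes. The knockout replicates were not alike: the median log2 difference from the wild-type libraries was −0.11 and −0.08 for knockout replicate 1 and −0.24 and −0.26 for knockout replicate 2. Without knockout replicate 2 the median log2 fold change of the members was −0.07, and without knockout replicate 1 it was −0.25. The median of all genes was −0.02 in both of these fits.

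**Figure D3:**
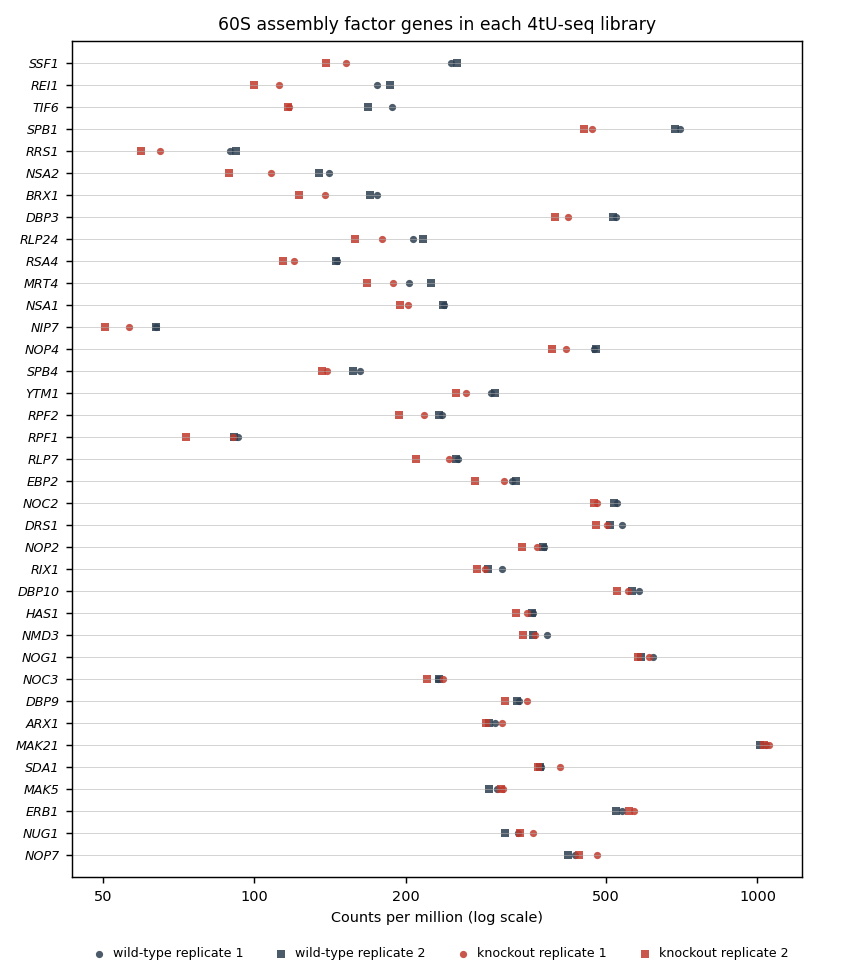
CPM in each of the 4 libraries (log axis) for the 37 genes, ordered by log2 fold change with the lowest at the top, wild-type libraries in dark blue and knockout libraries in red, circles for replicate 1 and squares for replicate 2. The groups are clearly apart in the upper rows, from 139 and 152 against 246 and 253 CPM for SSF1, and overlap or lie close together in the lower rows.

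Per length, the 37 genes were among the more strongly labelled. In wild-type they showed levels between 80.9 (SPB4) and 320 (MAK21) CPM per kb of transcript, with a median of 185, against 65.1 for all genes tested. All 37 lay above the median gene. The helicase gene DBP3 (284), the GTPase gene NOG1 (273) and the methyltransferase gene SPB1 (262) followed MAK21, and RSA4 (86.9) and NIP7 (85.3) stood next to SPB4 at the low end. All 37 have a single coding exon, and the counted region held the whole coding sequence in each case.

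Which single genes were lower depended in part on the fit. Of the 20 lower genes, 14 were lower in all 13 alternatives, and NOC2, EBP2, NIP7, RLP7, MRT4 and RPF2 were not. The alternative that moved most calls was a length correction, an offset from a smooth curve of each library's log2 ratio on transcript length, under which 3 of the 20 were no longer lower and 12 other genes were. The counts for the role groups are therefore given with and without it. Over all genes 38.5% were lower with it and 35.5% without it, and without it 8.15% were down by more than 1.5-fold.

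The early factors and Noc proteins form the scaffold of the first particles. Of these 11 genes, 8 were lower, 1 of them by more than 1.5-fold, and 3 were not (median log2 fold change −0.24). Under the length correction 9 of the 11 were lower. SSF1 (YHR066W, chromosome VIII, 229313 to 230827), a Brix-domain protein of the early particle, had the largest difference of all 37 genes. It had 152 and 139 CPM in the knockout and 246 and 253 CPM in wild-type, so the groups lay far apart. Its level was 1.71-fold lower (log2 fold change −0.78 ± 0.06 SE, adjusted p = 1.57e-05), and it was called down in 13 of 13 alternatives, though not in the DESeq2 test against a fold change of 1.5. SSF1 has a paralog, SSF2, and 3.62% of the 50-base words of its region occur elsewhere in the genome, so a small part of its counts is uncertain. SSF2 itself was 14.9% lower (adjusted p = 0.0187).

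NSA2 (−0.48 ± 0.09) and BRX1 (−0.40 ± 0.07), the latter another Brix-domain protein, followed. Their adjusted p-values were 0.00147 and 0.000897. NSA1 (−0.26), NIP7 (−0.25), the RNA-binding protein gene NOP4 (−0.24), EBP2 (−0.16) and NOC2 (−0.13) were lower by less. NIP7 did not pass under the length correction (adjusted p = 0.165), and EBP2 did not pass without knockout replicate 2 or without either wild-type library. RPF1, with a log2 fold change of −0.17 ± 0.09, did not pass (adjusted p = 0.150, but 0.00364 without knockout replicate 1), and its knockout libraries differed from each other, at 90.8 and 73.2 CPM. The Noc proteins work in pairs, Noc2 first with Noc1 (encoded by MAK21) and later with Noc3. MAK21 (YDR060W, chromosome IV, 570619 to 573814) had 1054 and 1030 CPM in the knockout and 1038 and 1011 CPM in wild-type. These values overlap (log2 fold change 0.03 ± 0.06 SE, adjusted p = 0.711, negative under upper-quartile scaling, without normalization factors and under a length correction). NOC3 was at −0.02 ± 0.05 (adjusted p = 0.740), and NOC2 passed with an adjusted p of 0.0504. These calls did not hold throughout. NOC2 did not pass with the replicate numbers as a block (adjusted p = 0.129), in the DESeq2 Wald test (0.103) or without either wild-type library (0.260 and 0.194). Under the length correction all 3 Noc genes were lower, NOC2 with an adjusted p of 0.00114, NOC3 with 0.0333 and MAK21 with 0.0219. Differences among the 3 were not tested.

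The PeBoW complex joins Nop7, Erb1 and Ytm1 and is needed to process the spacer in the precursor RNA. Of its 3 genes 1 was lower and 2 did not pass, with and without the length correction, and differences among them were not tested. YTM1 (YOR272W, chromosome XV, 832767 to 834274), whose product is later pulled off by the ATPase Mdn1, had 263 and 251 CPM in the knockout and 296 and 301 CPM in wild-type. The groups were apart and the level was 1.16-fold lower (log2 fold change −0.21 ± 0.05 SE, adjusted p = 0.00719). ERB1 (YMR049C, chromosome XIII, 368035 to 370551) had 568 and 555 CPM in the knockout and 537 and 524 CPM in wild-type, which is the opposite order but without passing the test (0.08 ± 0.05 SE, adjusted p = 0.189). NOP7 (YGR103W, chromosome VII, 695390 to 697439) gave the highest log2 fold change of all 37 genes, 0.11 ± 0.06 (adjusted p = 0.117, and 0.0233 without knockout replicate 2). The signs of ERB1 and NOP7 turned negative without normalization factors and under the length correction, and that of ERB1 also under upper-quartile scaling.

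DEAD-box helicases unwind or reanneal short stretches of RNA. Of 7 helicase genes, 2 were lower and 5 were not (median −0.09), whereas all 7 were lower under the length correction (median −0.26). DBP3 (YGL078C, chromosome VII, 360100 to 361929), whose protein is not essential in yeast, had 420 and 396 CPM in the knockout and 523 and 515 CPM in wild-type. It was the most strongly labelled helicase gene and the most changed, 1.27-fold lower (−0.35 ± 0.05 SE, adjusted p = 0.000647). SPB4 was also lower, with a log2 fold change of −0.21 ± 0.05 (adjusted p = 0.00671). DRS1 (−0.10), DBP10 (−0.09), HAS1 (−0.07) and MAK5 (0.06, with the sign turned under upper-quartile scaling, without factors and under the length correction) did not pass the test, but under the length correction their adjusted p-values were 0.00514, 0.00407, 0.0108 and 0.0764. DBP9 (YLR276C, chromosome XII, 694972 to 696926), nearest to no change together with ARX1, had 348 and 314 CPM in the knockout on both sides of 336 and 332 CPM in wild-type (−0.01 ± 0.06 SE, adjusted p = 0.878, barely above 0 with DESeq2 size factors, and −0.14 with an adjusted p of 0.0740 under the length correction). In HAS1, 27.8% of the counted region lies under a transcript of the other strand, ABZ2, the largest such share among the 37, and whether the counting used strand is not stated.

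Of the 2 methyltransferase genes 1 was lower. SPB1 (YCL054W, chromosome III, 31433 to 34078), which methylates the ribose of a base in the A-loop of the large subunit RNA, had 468 and 452 CPM in the knockout and 701 and 687 CPM in wild-type. The groups were far apart, and the level was 1.51-fold lower (log2 fold change −0.59 ± 0.05 SE, adjusted p = 3.17e-05). It lay at the edge of the fold change minimum and was called in 9 of 13 alternatives, with an adjusted p under 0.1 in all of them. NOP2, which methylates a cytosine of the same RNA, had a log2 fold change of −0.09 ± 0.05 and did not pass (adjusted p = 0.160). Under the length correction NOP2 was lower too (−0.23, adjusted p = 0.00650).

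GTPases check and license steps of maturation. Neither of the GTPase genes measured was lower or higher in the fit without a length correction, and NOG1 was lower with it. NOG1 (YPL093W, chromosome XVI, 370947 to 373158) had 608 and 579 CPM in the knockout and 621 and 586 CPM in wild-type, which overlap (log2 fold change −0.02 ± 0.06 SE, adjusted p = 0.728). Its log2 fold change was −0.17 under the length correction (adjusted p = 0.0228) and −0.18 without normalization factors (adjusted p = 0.0221). NUG1 (YER006W, chromosome V, 162685 to 164345) had 358 and 337 CPM in the knockout and 335 and 316 CPM in wild-type (0.10 ± 0.06 SE, adjusted p = 0.168, negative without normalization factors, and higher with an adjusted p of 0.0725 without knockout replicate 2). Both knockout libraries of NUG1 lay above both wild-type libraries, by little in the case of replicate 2.

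Some assembly factors resemble a ribosomal protein. All 3 such genes were lower, but under the length correction RLP24 alone was (adjusted p = 0.0217). RLP24 (YLR009W, chromosome XII, 166398 to 167264), a relative of Rpl24, had 180 and 159 CPM in the knockout and 207 and 217 CPM in wild-type (log2 fold change −0.32 ± 0.07 SE, adjusted p = 0.00336). MRT4 (YKL009W, chromosome XI, 426201 to 427045), a relative of the stalk base protein P0, had 188 and 167 CPM in the knockout and 203 and 225 CPM in wild-type (−0.27 ± 0.07 SE, adjusted p = 0.0129). In both genes the groups were apart, with knockout replicate 2 the lowest library. MRT4 was at −0.13 under the length correction (adjusted p = 0.104) and did not pass without wild-type replicate 2 either (adjusted p = 0.138). RLP7, a relative of Rpl7, passed with an adjusted p of 0.0858 (−0.16 ± 0.07) and was past that threshold in 6 of 13 alternatives, not including the length correction (−0.08, adjusted p = 0.349).

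RPF2 and RRS1 encode partners that bring the 5S particle to the pre-ribosome, and both were lower. RRS1 (YOR294W, chromosome XV, 868295 to 869100) had 64.9 and 59.6 CPM in the knockout and 89.6 and 91.9 CPM in wild-type. Its level was 1.46-fold lower (log2 fold change −0.54 ± 0.06 SE, adjusted p = 0.000152), just under the fold change minimum, and it was called down in 3 of 13 alternatives. RPF2 (YKR081C, chromosome XI, 591413 to 592561) was the more strongly labelled per length and had the smaller change, with 218 and 194 CPM in the knockout and 236 and 233 CPM in wild-type (−0.19 ± 0.06 SE, adjusted p = 0.0292). RPF2 did not pass without either wild-type library (adjusted p = 0.149 and 0.127), and both genes were lower under the length correction.

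Of the genes around the ATPase Mdn1, also called Rea1, and the Rix1 complex, 1 of 3 was lower, and 2 of 3 under the length correction. RSA4 (YCR072C, chromosome III, 240702 to 242378), on which Mdn1 pulls to release factors, had 120 and 114 CPM in the knockout and 146 and 145 CPM in wild-type. The groups were apart (log2 fold change −0.31 ± 0.05 SE, adjusted p = 0.00115). RIX1 (−0.09 ± 0.06, adjusted p = 0.186) did not pass, but was at −0.25 under the length correction (adjusted p = 0.00529). SDA1 (YGR245C, chromosome VII, 979708 to 982155), needed for export of the particle, had 404 and 366 CPM in the knockout and 372 and 370 CPM in wild-type, which overlap (0.05 ± 0.06 SE, adjusted p = 0.445, higher with an adjusted p of 0.0629 without knockout replicate 2, and with the sign turned under upper-quartile scaling, without factors and under the length correction).

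Among the factors of export and cytoplasmic maturation, 2 of 4 were down by more than 1.5-fold. REI1 (YBR267W, chromosome II, 739825 to 741142), which releases the export factor Arx1 in the cytoplasm, had 112 and 100 CPM in the knockout and 175 and 186 CPM in wild-type. Its level was 1.70-fold lower (log2 fold change −0.77 ± 0.07 SE, adjusted p = 2.92e-05), with the same record over the alternatives as SSF1. TIF6 (YPR016C, chromosome XVI, 592158 to 593161), which keeps the immature large subunit from joining the small one, had 117 and 117 CPM in the knockout and 188 and 168 CPM in wild-type. It was 1.52-fold lower (−0.60 ± 0.06 SE, adjusted p = 9.22e-05), but under the length correction its log2 fold change was −0.51 and it was not called.

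The other pair of this group passed only under the length correction or a change of scaling. NMD3 (YHR170W, chromosome VIII, 443787 to 445483), the adapter for nuclear export, had 361 and 341 CPM in the knockout and 381 and 358 CPM in wild-type, which overlap (log2 fold change −0.07 ± 0.06 SE, adjusted p = 0.294). It was lower under the length correction (−0.17, adjusted p = 0.0235), with upper-quartile factors (adjusted p = 0.0380) and without factors (adjusted p = 0.00846). ARX1 (YDR101C, chromosome IV, 655568 to 657489), the protein that Rei1 removes, had 311 and 288 CPM in the knockout and 301 and 293 CPM in wild-type (0.01 ± 0.06 SE, adjusted p = 0.851, negative under upper-quartile scaling, without factors with an adjusted p of 0.0664, and under the length correction with 0.0997). Whether REI1 and ARX1 differ in their change was not tested.

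**Figure D4:**
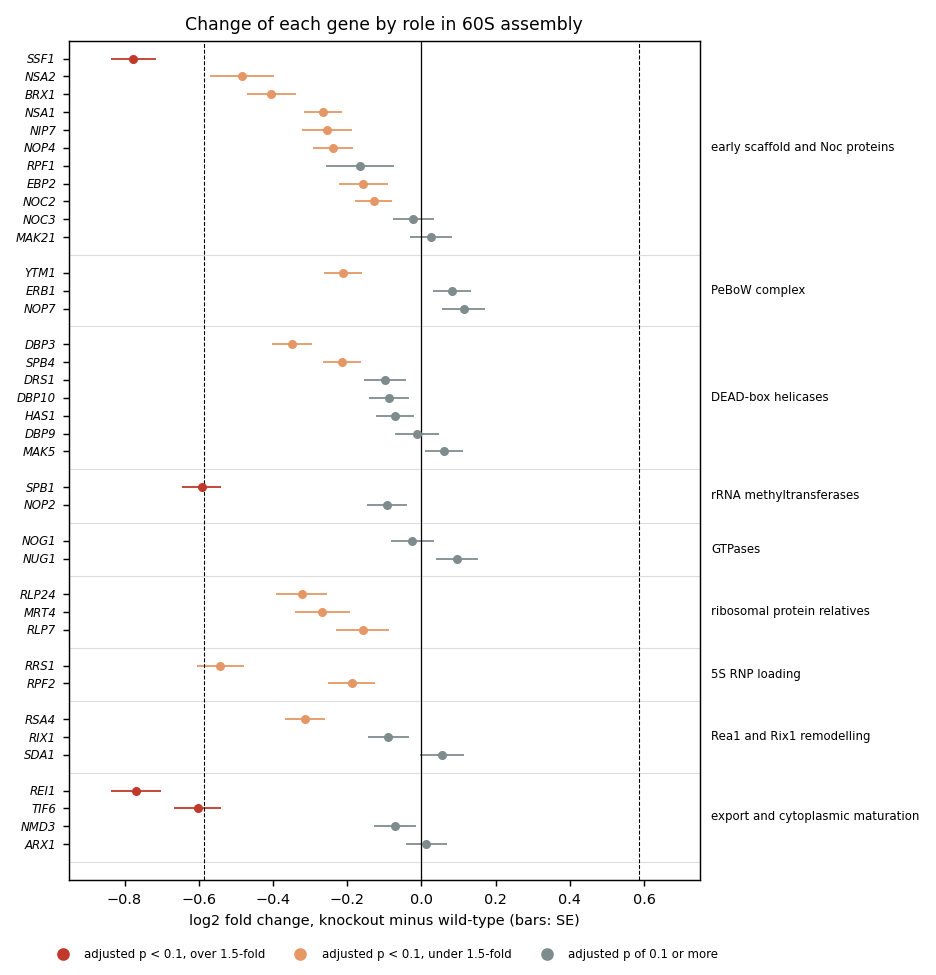
Log2 fold change (knockout minus wild-type, bars SE) of each of the 37 genes, grouped by role, with dashed lines at a 1.5-fold change. SSF1, SPB1, REI1 and TIF6 lie beyond the dashed line on the left, 16 more genes pass the adjusted p without it, and no gene lies beyond the dashed line on the right.

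Transcript length moved with these differences. Across the 37 genes the log2 fold change rose with the length of the counted region (Spearman rho 0.59, n = 37 genes of the same 4 libraries), and across all 4802 mRNAs it did too (rho 0.33). All 12 genes under 1500 nt were negative and 11 of them were lower (median −0.29), whereas 9 of the 25 longer genes were lower (median −0.09). Of all mRNAs under 1500 nt 63.5% were negative and 45.3% were lower, and of the longer ones 23.5% were lower. The knockout replicates differed along length as well, with a rho of −0.63 over the 37 genes for replicate 1 minus replicate 2 and length, and a rho of 0.39 for the wild-type replicates. In the fit with the length correction 29 of the 37 genes were lower, against 38.5% of all genes, with a median of −0.20, where that of all genes was −0.05, and a rho with length of 0.06. Of the 12 shorter genes 8 were lower and of the 25 longer ones 21, with medians of −0.19 and −0.23.

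**Figure D5:**
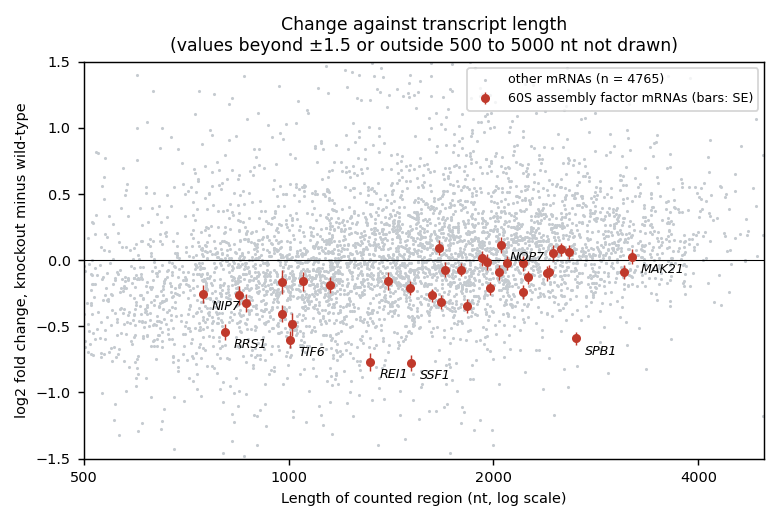
Log2 fold change (knockout minus wild-type) against the length of the counted region (log axis) for the 37 assembly factor genes (red, bars SE) and other mRNAs (grey). The shortest members lie below 0 and most of the longest lie near it, while SPB1 (2646 nt) is low at a length where other members are not.

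On the other strand, a counted transcript overlapped 15 of the 37 genes, over 0.156% to 27.8% of their length, and 34.5% of all mRNAs had such an overlap. In the 22 genes with no such overlap, the median log2 fold change was −0.16 and 12 were lower (54.5%, against 35.5% of all genes). Transcripts outside the deposited annotation were not considered. NOP4 overlaps VPS16 by 13 nt on the same strand.

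Neighbours that start close by on the other strand were looked at as well, without a share over all mRNAs, so their number is no trait of these genes. For 19 of the 37 a transcript ran the opposite way from a start within 500 nt (95 to 277 nt, median 234). Of the 18 neighbours tested, 9 were lower, 3 were higher and 6 did not pass, with a median of −0.13. Over all genes 35.5% were lower and 33.5% higher. The values of members and neighbours were weakly related (Pearson r 0.07 and Spearman rho 0.19 over 18 pairs from the same libraries). SSF1 shares its upstream region with RRP3, a helicase gene of the small subunit pathway, which stayed near 0 at −0.004 ± 0.055 on the log2 scale (adjusted p = 0.947). MRT4 faces the ubiquitin ligase gene UFD4, which was higher by 0.86 ± 0.07 (adjusted p = 1.71e-05). SPB4 faces the pseudouridine synthase gene DEG1, which was lower by more than SPB4 was, at −0.69 ± 0.06 (adjusted p = 2.78e-05).

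Further genes of the same pathway were read from a list of 40 other 60S assembly factors, of which 38 were measured. Of these, 26 were lower (68.4%) and 5 higher (13.2%), with a median log2 fold change of −0.28, and 4 (10.5%) were down by more than 1.5-fold. The most changed were RSA3 (−0.72 ± 0.06 SE, adjusted p = 2.19e-05) and DBP7 (−0.68 ± 0.06 SE, adjusted p = 2.22e-05), both early factors, and CGR1 (−0.61 ± 0.09 SE, adjusted p = 0.000466). Of 28 genes for assembly of the small subunit, 21 (75%) were lower and 0 higher (median −0.18), with 2 (7.14%) down by more than 1.5-fold. Over all genes 35.5% were lower, 33.5% higher and 8.15% down, so the shares down in both lists lay near that of all genes. In their median the 37 genes were close to the genes of the small subunit pathway, and no test of a difference between the lists was made.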

How the data were processed

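Total RNA was labelled, purified and sequenced as paired-end reads. The authors aligned the reads to sacCer3 with STAR 2.3.0, filtered them with SAMtools and counted them per transcript with HTSeq, and the deposited values are raw counts, not normalized, for 4970 mRNA and sn/snoRNA regions. The deposited annotation gives the start and end of each region. The use of strand in counting is not given in the sources used here. A deposited table of the authors' own DESeq2 comparison (mean counts, log2 fold changes, p-values) was not used.

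Genes with a mean normalized count of at least 30 in either group (4845) were tested in edgeR 4.0.16 (R 4.3.3), with TMM factors, a quasi-likelihood test on group and Benjamini-Hochberg adjustment. Calls needed a fold change over 1.5 besides an adjusted p under 0.1, and genes were named lower or higher by that p alone. SE was taken as the log2 fold change over the square root of F and is approximate. DESeq2 1.42.0, other scalings and filters, a length offset (loess, span 0.5), a replicate block and leaving out each library were the alternatives. The fit was tested on simulated data that held no trend along length and no systematic difference between replicates, so that test does not bear on these. Figures used Python 3.11.15 and matplotlib 3.10.9.

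Members and lists were chosen with earlier results of these data known. All measured members are named. Full values are given for those past both thresholds, for the largest change and the highest level per kb in each role group, and for the 2 nearest to 0. Upstream sequence was read from the R64 genome at the deposited transcript starts, since no promoter table was used here.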

Additional observations from a re-analysis of the deposited data

How the results depend on the processing

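Of 333 values of single genes under 9 settings with all libraries, 281 stayed on the same side of the adjusted p of 0.1 that names a gene lower or higher, 9 lost a lower call, 42 gained one and 1 gained a higher call. The length offset (12 gained, 3 lost) and no normalization factors (12 gained) moved most. With each library left out in turn 129 of 148 values kept their side, 11 lost a lower call, 5 gained one and 3 gained a higher call. The sign changed in 26 of the 333 and 7 of the 148. SSF1 and REI1 were called in 13 of 13 settings, TIF6 in 10 and SPB1 in 9. The count of genes down was 0 in the DESeq2 test against a fold change of 1.5, and 2 (without wild-type replicate 1) to 6 (without knockout replicate 1) with a library left out, against 4 with all. Without normalization factors 32 genes were lower, in a fit where the median of all genes was −0.17. The shares of all genes lower or higher were not computed for the fits without factors or with a library left out. With a library left out 15 to 25 were lower. The count of genes higher was 1 with DESeq2 size factors, and 0 to 3 with a library left out, the 3 arising without knockout replicate 2. The median log2 fold change was −0.24 with upper-quartile factors and −0.31 without factors, where the median of all genes was −0.10 and −0.17, so that the members stayed 0.14 below all genes in both. With a library left out the median ran from −0.25 (without knockout replicate 1) to −0.068 (without knockout replicate 2), and the lone library of a group was assumed to vary like the others.

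With upper-quartile factors MAK21 was −0.059, ERB1 −0.0017, MAK5 −0.023, SDA1 −0.029 and ARX1 −0.071. Without factors MAK21 was −0.13, NOP7 −0.037, ERB1 −0.069, MAK5 −0.091, NUG1 −0.056, SDA1 −0.10 and ARX1 −0.14. Under the length offset MAK21 was −0.17, NOP7 −0.025, ERB1 −0.084, MAK5 −0.11, SDA1 −0.11 and ARX1 −0.11. With the replicate block and the length offset MAK21 was −0.18, NOP7 −0.027, ERB1 −0.084, MAK5 −0.11, SDA1 −0.11 and ARX1 −0.12. DBP9 was 4.59e-05 with DESeq2 size factors and 1.81e-05 in the DESeq2 Wald test. With a library left out NOC3 ran from −0.078 to 0.026, DBP9 from −0.089 to 0.057, NOG1 from −0.065 to 0.018, SDA1 from −0.022 to 0.12 and ARX1 from −0.045 to 0.063. The cause of these sign changes was not tested.

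The libraries share only replicate numbers, and the deviations of replicate 1 in knockout and wild-type correlated at r = −0.18 over 4845 genes. With the numbers as a replicate block 4 genes were down, 20 lower and 0 higher, with a median of −0.16. With the crossed pairing as a block, chosen after seeing the data, 4 were down, 0 up, 23 lower and 2 higher. With 2 libraries a group, small differences between single genes were not resolved.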

Other observations

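Genes outside the members that carry both PAC and RRPE letters were looked at after the values of the members were seen. Only the 37 members were left out, and other assembly factors were kept. Both elements stand before 15 of the other 60S assembly factors and 15 of the small subunit factors. Of 175 mRNAs with both elements tested, 102 were lower in the knockout (58.3%) and 26 were higher, with a median log2 fold change of −0.18. Of 3686 mRNAs with neither element, 1183 were lower (32.1%) and 1320 were higher, with a median of 0.01. No test of this difference was made.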
